A study of Mus musculus with 2 samples.

Results

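The 6 genes described here belong to the upper hair follicle and the ducts of its glands: Krt79, Cst6, Defb6, Lrig1, Gata6 and Plet1. They were followed through single-cell RNA libraries of the mouse anorectal junction. They were listed by name, but with earlier results of these data known, so the list is not independent of the data. All 6 were among the 31054 features of the normal library and the 32285 features of the wounded library. Each gene was read from the UMI counts (unique molecular identifiers, 1 per captured RNA molecule) of the 10 clusters that the authors named, of the filtered cells that they left out of their tables, and of the barcodes that failed the filters.

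Both libraries came from K17CreERT2;R26RGFP mice on the C57/BL6J background, in which a Krt17 promoter drives an inducible Cre, and which had received tamoxifen 2 times so that cells using that promoter at the anal transition zone (TZ) and their progeny carry a green reporter. In the study's protocol the anorectal tissue of at least 5 mice was pooled and cells were purified by FACS, with gates on Epcam and the reporter, and the study's sorting notes also state that cells with CD45, CD11b, CD31 or PDGFRa were excluded. The normal mice were not wounded, and the wounded mice (2 to 4 months old) were taken 1 week after hot EDTA followed by a mechanical wound. Each condition was 1 library, so the pool hides the spread between mice, no test between conditions was possible and no p-value is given. Intervals are exact 95% intervals and cover counting error only.

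The upper hair follicle is the permanent part above the bulge, where the sebaceous gland opens and the follicle joins the skin surface. Its basal cells are known for Lrig1, a membrane protein that restrains ErbB receptors, and for Plet1, a GPI-linked surface protein. Cells that leave this layer to line the duct and the canal are known for the type II keratin Krt79 and for Gata6, a zinc finger transcription factor. Cst6 encodes cystatin M/E, a secreted inhibitor of legumain and cathepsins that acts in cornifying epithelium, and Defb6 encodes a beta-defensin, a small antimicrobial peptide. Lrig1 and Gata6 are also known from intestinal epithelium.

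On the GRCm38 build (mm10) with GENCODE M21, Krt79 lies at chr15:101929332-101940324 on the minus strand and Cst6 at chr19:5344705-5349574 on the minus strand. Defb6 lies at chr8:19225478-19228209 and Plet1 at chr9:50494525-50505482, both on the plus strand. Lrig1 spans chr6:94604529-94700158 on the minus strand. RefSeq promoters of the GRCm38.p6 build, 250 bases before to 50 bases after the start site, matched 4 of the 6 genes, with Cst6 and Gata6 missing. The promoters of Krt79 (chr15:101940275-101940574, minus strand), Defb6 (chr8:19225228-19225527, plus strand) and Plet1 (chr9:50494275-50494574, plus strand) are printed because these 3 genes shared their highest cluster. Matches on either strand to the GATA core, the TATA box and a loosened AP-1 core are in capitals.
Krt79: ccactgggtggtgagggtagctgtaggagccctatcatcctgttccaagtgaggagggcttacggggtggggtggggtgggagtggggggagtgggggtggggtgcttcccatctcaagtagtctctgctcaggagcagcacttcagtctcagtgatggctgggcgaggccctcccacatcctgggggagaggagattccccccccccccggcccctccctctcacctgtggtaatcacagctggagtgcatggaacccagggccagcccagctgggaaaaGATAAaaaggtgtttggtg
Defb6: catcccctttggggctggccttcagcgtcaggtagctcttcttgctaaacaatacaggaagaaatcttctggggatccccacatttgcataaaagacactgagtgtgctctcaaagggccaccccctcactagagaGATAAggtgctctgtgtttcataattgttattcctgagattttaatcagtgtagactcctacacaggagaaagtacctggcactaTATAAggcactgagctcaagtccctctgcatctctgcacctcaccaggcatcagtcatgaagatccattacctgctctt
Plet1: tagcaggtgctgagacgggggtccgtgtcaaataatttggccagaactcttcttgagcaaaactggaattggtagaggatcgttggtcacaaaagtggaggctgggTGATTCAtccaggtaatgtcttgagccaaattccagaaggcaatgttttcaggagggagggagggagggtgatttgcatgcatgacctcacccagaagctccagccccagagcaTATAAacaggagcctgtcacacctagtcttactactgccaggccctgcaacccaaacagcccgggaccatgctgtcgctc
The GATA core GATAA, which GATA factors are known to bind, occurred 1 time in the Krt79 promoter and 1 time in that of Defb6, and 25.4% of all 32851 promoters of the table held it. The TATA box, searched as TATAA, occurred 1 time in the Defb6 promoter and 1 time in that of Plet1, 29 and 30 bases before the start site (24.9% of all promoters). The AP-1 core was searched in a loosened form, TGANTCA, with any base at N. This pattern occurred 1 time in the Plet1 promoter, as TGATTCA (7.81% of all promoters held the pattern). No match overlapped another, and the Lrig1 promoter (chr6:94700096-94700395, minus strand) held none of the 3. These motifs were chosen after the sequences were seen, and a match is not a binding site.

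The normal library held 17617944 UMIs over 2564 barcodes and the wounded library 88260050 UMIs over 17216 barcodes. Filters on features and mitochondrial UMIs kept 1548 and 5225 cells. The deposited tables named 939 and 4147 cells (1 normal cell of them did not pass the filters as applied here), with median depths of 9724 and 10077 UMIs. The libraries shared 1 barcode, and none among the filtered cells. The Hybrid cluster stood apart with a median of 2390 UMIs where the other 9 clusters had 8437 to 12616. Although cells were sorted for Epcam and against CD31 and PDGFRa, fibroblast-like, muscle-like and endothelial-like clusters lay among the filtered cells outside the tables, and the fibroblast-like cells (36 and 141, median depths of 6365 and 7936 UMIs) served as the background for genes they should lack. The label Rectum went with Krt8, a keratin of simple epithelium, at 2741 CPM (the group's UMIs of a gene scaled to a common total) in the normal and 2386 CPM in the wounded library. The label Basal covered unlike cells: Krt10, a keratin of differentiating stratified epithelium, was at 48.4 CPM in normal Basal, at 2228 CPM in normal Anal Canal and at 1987 CPM in wounded Basal. In sums over cells such as these, fewer cells of a type and less RNA per cell cannot be told apart.

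Of the 6 genes, 4 had their highest level of any deposited cluster in Suprabasal, in both libraries, while Lrig1 and Gata6 had theirs in Rectum. For Gata6 the normal intervals of Rectum and Suprabasal overlapped. The share of all genes with their highest level in each cluster was not computed, so these counts only describe the members. The levels of the 6 genes do not show that Suprabasal cells belong to the follicle or a duct. The hair follicle-like clusters outside the tables had Krt79 at 37.2 to 151 CPM. They were named by markers such as Lhx2 and Lgr5, and whether they hold upper follicle cells was not tested, so their Krt79 does not bear on this. The plot of levels by cluster shows the 4 genes highest in Suprabasal beside Lrig1 and Gata6.

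**Figure D1:**
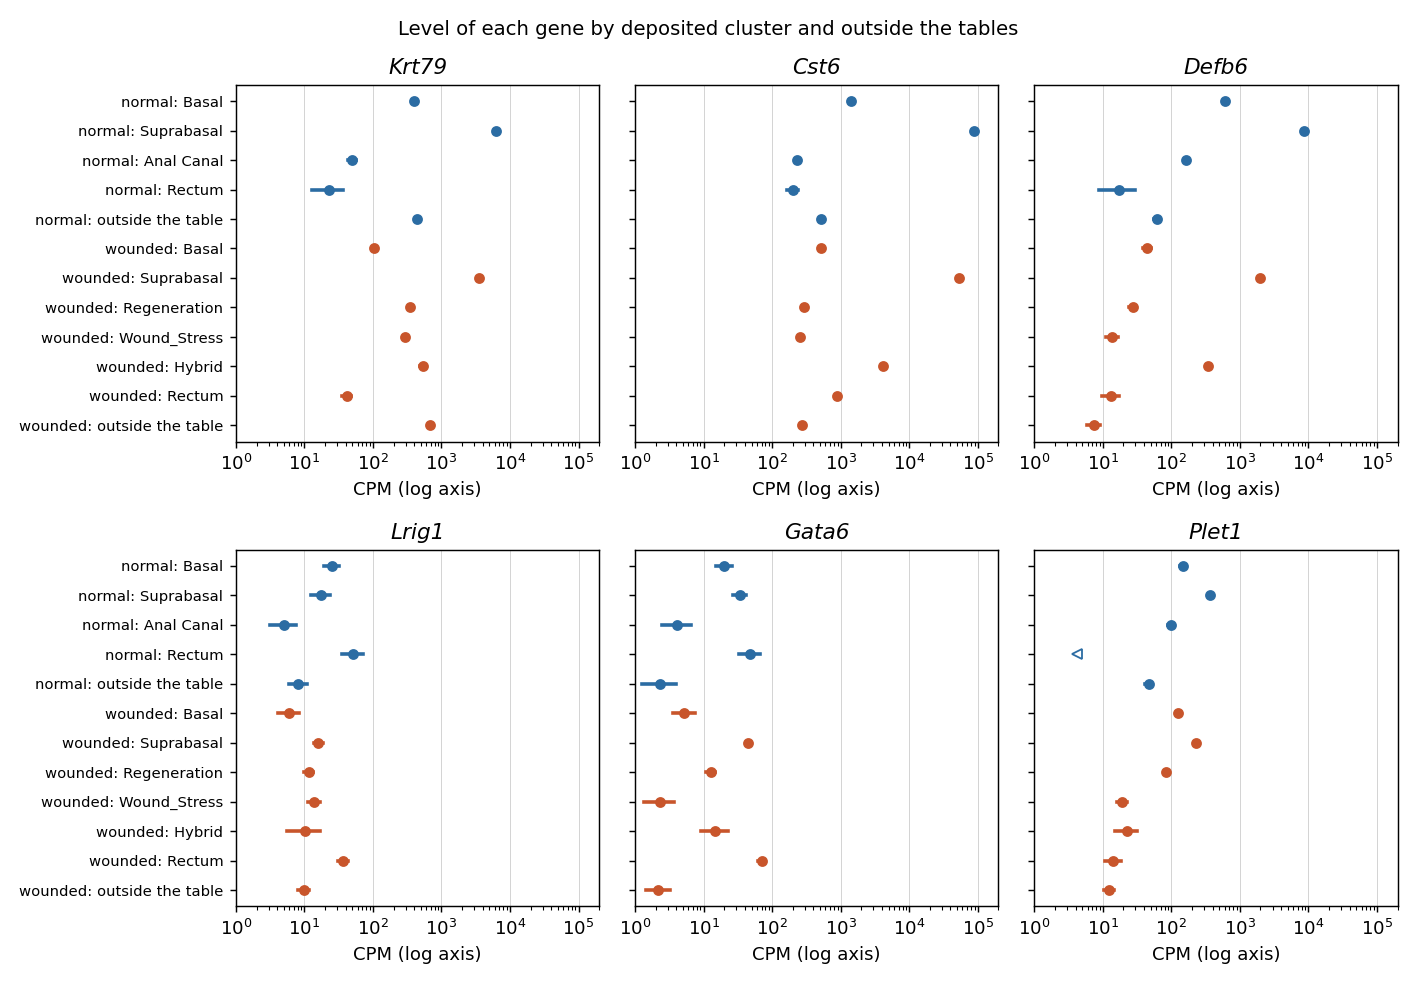
Level of each gene in CPM (log axis) in the deposited clusters and in filtered cells outside the tables, with exact Poisson 95% intervals (bars), in blue for the normal and orange-red for the wounded library, where the open triangle marks 0 UMIs, drawn at 3 UMIs. Krt79, Cst6, Defb6 and Plet1 sit furthest right in Suprabasal, and Lrig1 and Gata6 in Rectum.

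Cst6, the cystatin, had more UMIs than any other gene in Suprabasal in both libraries. In the normal library its level was 87278 CPM in Suprabasal, 1437 CPM in Basal, 231 CPM in Anal Canal and 199 CPM in Rectum. In the wounded library it was 53234 CPM in Suprabasal, 4092 CPM in Hybrid, 895 CPM in Rectum, 512 CPM in Basal, 295 CPM in Regeneration and 257 CPM in Wound_Stress. Suprabasal thus stood far above all others, and of the neighbours in this order the 95% intervals overlapped between normal Anal Canal and Rectum. Cst6 made up 8.73% of all UMIs of normal Suprabasal and 5.32% of those of wounded Suprabasal. Of all Cst6 UMIs of a library, 95.1% and 91.1% lay in Suprabasal cells.

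Cst6 in normal Anal Canal and Rectum and in wounded Basal, Regeneration, Wound_Stress and Rectum lay near the background or largely in single cells. As sums, normal Basal (1072 CPM without the highest cell) and Hybrid (3520 CPM without it) stayed above the background. Both were unevenly held: the 26 highest normal Basal cells had 78.9% of the UMIs and the 32 highest Hybrid cells 92.5%. The median normal Basal cell had 0.0319% of its UMIs from Cst6, and the 278 Hybrid cells at 1% or less were together at 279 CPM. In wounded Rectum 1 cell held 3179 of the 3680 Cst6 UMIs, and the level without that cell was 122 CPM. In wounded Basal 1 cell held 2179 of 2940 UMIs (133 CPM without it), and in Regeneration and Wound_Stress the highest cell held 46.6% and 59.6% of the UMIs (158 and 104 CPM without it). Fibroblast-like cells were at 222 CPM (95% interval 163 to 294) in the normal and 95.5 CPM (78.9 to 115) in the wounded library. After thinning to 2000 UMIs per cell, 39.4% of 33 normal fibroblast-like cells had a Cst6 UMI, beside 34.3% of Anal Canal and 33.3% of Rectum cells, and without thinning 362 of 432 Anal Canal and 52 of 63 Rectum cells had one. Thinning left out 3 fibroblast-like, 35 Anal Canal and 3 Rectum cells of lower depth. After wounding the share was 16.8% of 137 fibroblast-like cells, beside 19.9% to 21.2% in Basal, Regeneration, Wound_Stress and Rectum, so these shares were read as background. It was 51.0% (44.7 to 57.3) of normal Basal and 46.7% (39.4 to 54.2) of Hybrid cells, of which thinning left out 2 and 132. In Suprabasal it was 93.4% (95% interval 88.8 to 96.6) and 66.8% (63.8 to 69.7).

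Krt79, the keratin, was at 6213 CPM in normal Suprabasal (95% interval 6111 to 6316), 392 CPM in Basal, 49.5 CPM in Anal Canal and 22.7 CPM in Rectum. In the wounded library it was at 3509 CPM in Suprabasal (3475 to 3543), 530 CPM in Hybrid, 345 CPM in Regeneration, 290 CPM in Wound_Stress, 103 CPM in Basal and 41.4 CPM in Rectum. No neighbours in either order overlapped. In fibroblast-like cells Krt79 was at 13.9 and 31.6 CPM, and Regeneration and Wound_Stress, clusters of the wounded table alone, stood well above that. Markers of gland cells were higher there too: the 8 anal gland markers summed to 3811 and 2721 CPM, against 278 CPM in wounded Basal and 624 CPM in Suprabasal, and the 4 sebaceous markers, which share 2 genes with them, to 174 and 136 CPM against 7.49 and 63.3 CPM, with none at 0. Plin2, a lipid droplet protein on the anal gland list, was at 976 and 365 CPM, against 36.6 CPM in wounded Basal, and at 737 and 1256 CPM in the wounded sebaceous-like clusters. The part of gland cells in this Krt79 was not tested. Cst6 in Regeneration and Wound_Stress without the highest cell, at 158 and 104 CPM, stood beside a background of 95.5 CPM. Krt79 there was spread over many cells: the highest cell held 1.16% and 1.52% of the UMIs, and 33.5% (95% interval 30.5 to 36.5) and 40.1% (36.7 to 43.5) of thinned cells had a UMI, against 5.50% in wounded Basal, 7.91% in Rectum and 3.65% in fibroblast-like cells. Without thinning, 661 of 991 Regeneration, 640 of 838 Wound_Stress and 94 of 573 Basal cells had a Krt79 UMI. Krt79 in wounded Basal was less evenly held, with 308 of 594 UMIs in 1 cell and 50.1 CPM without it.

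Defb6, the defensin, was likewise highest in Suprabasal. It belongs to a multigene family, and how reads shared with a related copy bear on its counts was not tested. It was at 8540 CPM in normal Suprabasal, 607 CPM in Basal, 166 CPM in Anal Canal and 17.0 CPM in Rectum. In Anal Canal 1 cell held 603 of the 726 UMIs, and the level without it was 28.3 CPM, near the 27.7 CPM of fibroblast-like cells. After wounding Defb6 was at 1982 CPM in Suprabasal, 345 CPM in Hybrid, 44.4 CPM in Basal, 27.3 CPM in Regeneration, 13.5 CPM in Wound_Stress and 13.1 CPM in Rectum, the last pair with overlapping intervals. It ranked 8 among the genes of normal Suprabasal by UMIs and 94 in wounded Suprabasal.

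Plet1, the surface protein, had a flatter pattern. It was at 369 CPM in normal Suprabasal (345 to 395), 150 CPM in Basal and 97.7 CPM in Anal Canal, with 0 UMIs in 63 Rectum cells, where 3 UMIs would be 4.26 CPM. In the wounded library it was at 226 CPM in Suprabasal, 125 CPM in Basal, 82.4 CPM in Regeneration, 22.3 CPM in Hybrid, 19.0 CPM in Wound_Stress and 14.1 CPM in Rectum, the last 3 with overlapping intervals. Thinned cells with a Plet1 UMI made up 47.5% of normal Suprabasal, 22.7% of Basal and 9.32% of Anal Canal, with 0 of 33 fibroblast-like cells (without thinning 155 of 187, 158 of 257 and 125 of 432 cells). In Anal Canal Plet1 was thus above its background of 4.62 CPM, also without the highest cell (72.0 CPM), where Krt79 and Defb6 without theirs were at 35.0 and 28.3 CPM, inside the background's intervals.

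Lrig1, the ErbB regulator, was sparse in all clusters. It was at 51.1 CPM in normal Rectum (35.8 to 70.8, 36 UMIs), 25.1 CPM in Basal, 17.5 CPM in Suprabasal and 5.02 CPM in Anal Canal, and the intervals of Basal and Suprabasal overlapped. After wounding it was at 36.7 CPM in Rectum (31.1 to 43.1, 151 UMIs), 15.9 CPM in Suprabasal, 13.8 CPM in Wound_Stress, 11.5 CPM in Regeneration, 10.1 CPM in Hybrid and 5.92 CPM in Basal, with overlaps between all neighbours below Rectum. The background in fibroblast-like cells was 0 UMIs in the normal library and 6.65 CPM in the wounded one. Muscle-like cells were at 22.4 CPM (4 UMIs) in the normal and 16.0 CPM (7 UMIs) in the wounded library. Normal Suprabasal and Anal Canal lay below that normal muscle-like level, and normal Basal lay close to it. Wounded levels below that of Rectum were thus at or below the highest background level. All of them but Basal lay above the level of fibroblast-like cells. A UMI was seen in 11.7% (4.82 to 22.6) and 9.60% (6.74 to 13.2) of thinned Rectum cells. Rectum was the highest cluster in both libraries.

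Gata6, the transcription factor, lies at chr18:11052064-11085635 on the plus strand. It was at 46.9 CPM in normal Rectum (32.3 to 65.8, 33 UMIs) and 33.7 CPM in Suprabasal (26.6 to 42.2), intervals that overlap, and had 54 UMIs in Basal (15.0 to 26.0 CPM) and 4.11 CPM in Anal Canal. In the wounded library it was at 71.0 CPM in Rectum (63.1 to 79.7), 44.8 CPM in Suprabasal (41.1 to 48.9), 14.8 CPM in Hybrid, 12.7 CPM in Regeneration, 5.23 CPM in Basal and 2.28 CPM in Wound_Stress. Fibroblast-like cells had 0 UMIs in the normal and 1.66 CPM in the wounded library. Suprabasal thus came next after Rectum for Gata6, and above the other clusters in both libraries.

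The clusters named Suprabasal and Basal were compared in each library. In the normal library 4 of 6 members were over 2-fold higher in Suprabasal and 0 were over 2-fold lower, against 6.18% of 8651 genes higher and 15.6% lower (genes with at least 30 UMIs over both groups). Cst6 was 60.7-fold higher (log2 ratio 5.92, 95% interval 5.88 to 5.97), Krt79 15.8-fold (3.99, 3.90 to 4.08), Defb6 14.1-fold (3.82, 3.74 to 3.89) and Plet1 2.47-fold (1.30, 1.13 to 1.48). Gata6 had a log2 ratio of 0.76 (0.24 to 1.29) and Lrig1 of -0.52 (-1.12 to 0.06). The members' median log2 ratio was 2.56 and that of all genes -0.28.

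After wounding 5 of 6 members were over 2-fold higher in Suprabasal and 0 lower, against 9.26% and 10.4% of 11600 genes. Among the 5 was Lrig1, whose levels here (15.9 and 5.92 CPM) were at or below the highest background level given above. Cst6 was 104-fold higher, Defb6 44.6-fold (log2 ratio 5.48, 5.30 to 5.66), Krt79 33.9-fold (5.08, 4.97 to 5.20), Gata6 8.58-fold (519 against 30 UMIs) and Lrig1 2.68-fold (log2 ratio 1.42, 184 against 34 UMIs), and Plet1 had a log2 ratio of 0.85. Without the highest cell of each group, Cst6 was 394-fold higher, Krt79 69.5-fold, Defb6 90.3-fold and Plet1 2.13-fold. In wounded Basal without that cell, Cst6 (133 CPM) and Krt79 (50.1 CPM) stood beside 95.5 and 31.6 CPM in fibroblast-like cells. The sizes of the Cst6 and Krt79 folds thus depend in part on that background. The Basal clusters of the libraries hold unlike cells, as their Krt10 shows, so these ratios and those of the normal library have unlike denominators, and the difference between them was not tested. Because wounded Basal had Krt10 near the level of normal Anal Canal, the wounded ratios need not be ratios between layers. In the plot of these ratios the normal value of Lrig1 has an interval that includes 0.

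**Figure D2:**
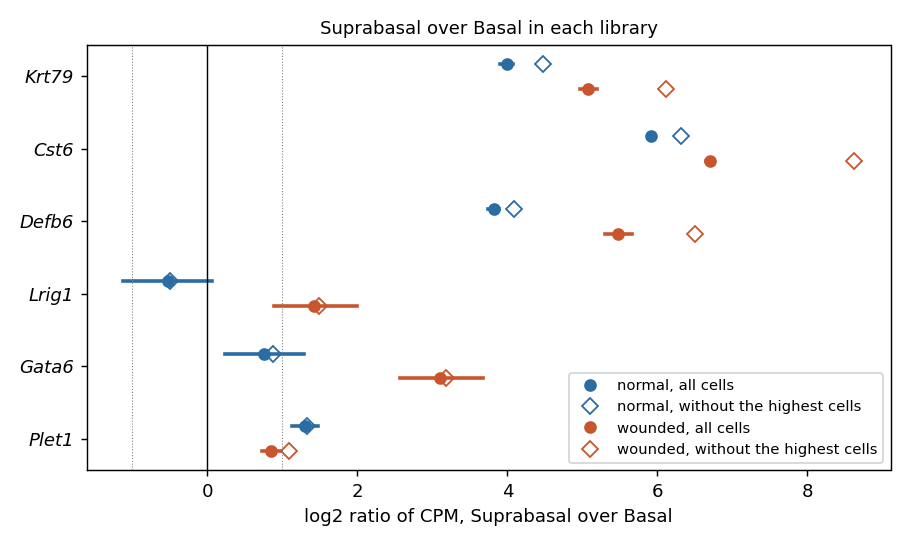
Log2 ratio of CPM, Suprabasal over Basal, for each gene in the normal (blue) and wounded (orange) library, with exact binomial 95% intervals (bars) over all cells (filled) and without the cell with the most UMIs of the gene in each group (open); dotted lines mark 2-fold. Cst6, Krt79 and Defb6 lie right of 3 in both libraries, and Lrig1 at -0.52 and 1.42.

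Against Anal Canal, all 6 members were over 2-fold higher in normal Suprabasal, where 7.84% of 9437 genes were, and 0 were lower (18.6% of genes). Cst6 was 378-fold and Krt79 125-fold higher, and Defb6 51.5-fold (291-fold without the highest cells). In Anal Canal Cst6, and Krt79 and Defb6 without their highest cells, lay near the background given above. The sizes of these folds, and of those of Anal Canal against Basal that follow, thus depend on that background. Gata6 was 8.21-fold, Plet1 3.78-fold and Lrig1 3.49-fold higher. For Lrig1, Suprabasal and Anal Canal lay below the 22.4 CPM of normal muscle-like cells, and Basal (25.1 CPM) lay close to it. Against Basal, 5 of 6 members were over 2-fold lower in Anal Canal, where 9.13% of 9778 genes were, and 0 were higher (8.00% of genes). Krt79 was 7.92-fold, Lrig1 5.01-fold and Defb6 3.66-fold lower (17.0-fold without the highest cells), and Plet1, at a log2 ratio of -0.62, was the exception.

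Suprabasal cells were far from uniform in these genes. In the normal library Cst6 took a median of 3.46% of the UMIs of a Suprabasal cell, with 0.108% at the 10th and 19.2% at the 90th percentile and 44.0% in the highest cell. In wounded Suprabasal the median was 0.106%, the 75th percentile 3.62% and the 90th 12.1%, with 49.3% in the highest cell. Cells with over 1% of their UMIs from Cst6 were 135 of 187 (72.2%) in the normal and 380 of 1032 (36.8%) in the wounded library, and 31 and 106 cells lay within 2-fold of that value. The 1% value was set after the data were seen and marks a range, not a cell type.

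The cells at or below 1% had more of the basal keratins, and in the wounded library they were shallower (median 8135 UMIs, against 15583 above 1%). The part of depth in this was not tested. In wounded Suprabasal the 652 cells at 1% or less had Krt15, a keratin of basal cells, at 1924 CPM, against 113 CPM in the 380 cells above, and Krt5 at 1747 against 457 CPM. In normal Suprabasal Krt15 was at 1221 CPM in 52 cells and at 168 CPM in 135. The other members in the low wounded cells are given beside normal Basal. Krt79 was at 584 beside 392 CPM, Defb6 at 390 beside 607 CPM, Lrig1 at 22.1 beside 25.1 CPM, Gata6 at 37.0 CPM (32.2 to 42.5) beside an interval of 15.0 to 26.0 CPM, and Plet1 at 101 beside 150 CPM. Over bins of the Cst6 share, Krt79 in wounded Suprabasal was at 53.4 CPM in the lowest bin and 6848 CPM in the highest, and Krt15 at 2527 and 17.4 CPM.

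**Figure D3:**
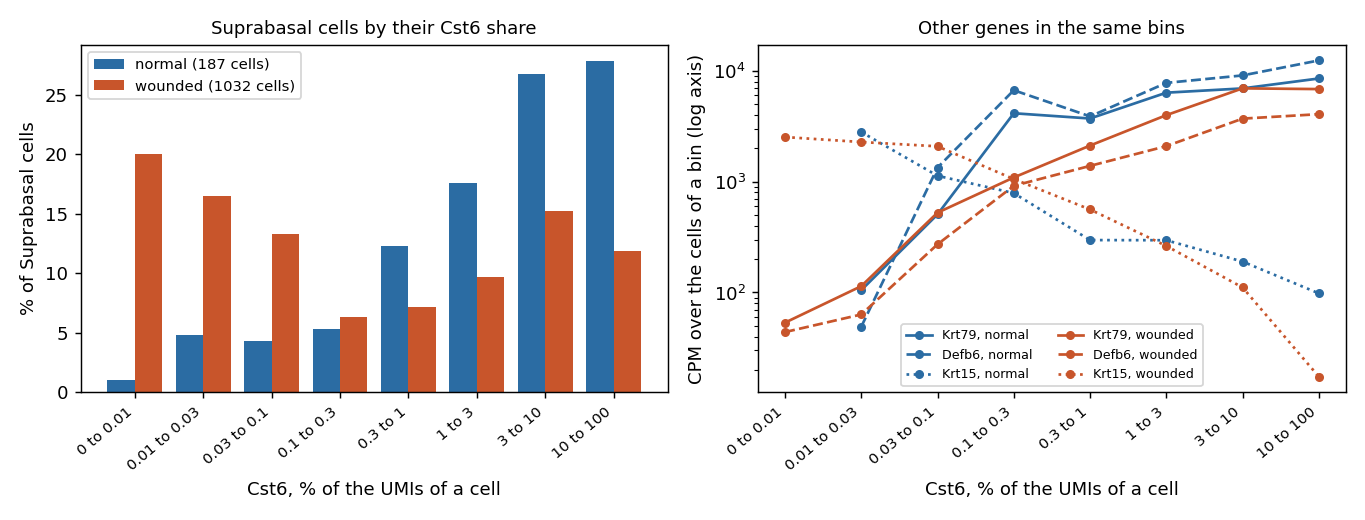
Left, percent of Suprabasal cells in bins of the percent of a cell's UMIs that is Cst6, in the normal (blue) and wounded (orange) library; right, CPM of Krt79, Defb6 and Krt15 over the cells of each bin (log axis, bins under 5 cells not drawn). In the normal library 27.8% of cells lie over 10% Cst6 and in the wounded library 11.9%, and the lines of Krt79 and Defb6 run opposite to that of Krt15. The 4 lowest normal bins hold 2 to 10 cells each.

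Single cells of normal Suprabasal mostly held Krt79 with Cst6 and with Defb6, and in wounded Suprabasal Defb6 was seen in fewer. Among 183 thinned normal cells, 157 of the 158 with a Krt79 UMI had Cst6, and 138 of them had Defb6. Of all 183 cells, 171 had Cst6 and 146 had Defb6, so these shares are not far from those of all cells. Over these cells the correlation of log2(1 + UMIs) was r = 0.65 (Spearman's rho 0.65) for Krt79 with Defb6 and r = 0.52 (rho 0.46) for Krt79 with Cst6. Among 1020 thinned wounded cells Krt79 was seen in 521, Cst6 in 681 and Defb6 in 399. Of the 521 cells with Krt79, 485 had Cst6 and 359 had Defb6. Over the 1020 cells r was 0.76 for Krt79 with Defb6 and 0.85 for Krt79 with Cst6. Lrig1 was sparse. Of 41 wounded Suprabasal cells with a Lrig1 UMI, 16 had Krt79 (39.0%) and 4 had Plet1 (9.76%), against 521 and 270 of all 1020 cells. Of 88 such cells with a Gata6 UMI, 61 had Krt79 (69.3%). These are descriptions over cells that share a library and a depth, and correlations of the sparse genes were near 0.

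In normal Suprabasal cells the genes most like Cst6, by Spearman's rho over 183 thinned cells, were Ly6g6c (0.70), AA467197 (0.64), Sprr1a (0.60), Krtdap (0.58) and Spink5 (0.56). Sprr1a, Krtdap and Spink5 are known from differentiating keratinocytes. Those most like Krt79 were Defb6 (0.65), Ly6g6c (0.49), Dbi (0.49), Cst6 (0.46) and Psapl1 (0.45). Those most like Defb6 were Krt79 (0.65), Ly6g6c (0.58), Calm4 (0.50), Dbi (0.47) and Psapl1 (0.46). Ly6g6c was thus in all 3 lists, and Krt5 had the lowest rho with each gene (-0.43 to -0.62).

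Over the 10 deposited clusters, the genes with the highest Pearson correlation of log2(CPM + 1) were Folr1, Olah and Tmem229b for Krt79 (0.936 to 0.956), Susd2, Gsdma and Pglyrp4 for Cst6 (0.947 to 0.971) and Bbox1, Ctsb and Cpe for Defb6 (0.952 to 0.968). For Plet1 they were Ndufa4l2, Gpc1 and Baiap2 (0.978 to 0.982), for Lrig1 Arhgef16, Mcee and Cd63 (0.942 to 0.961), and for Gata6 Sorbs2, Mapk3 and Gabarap (0.932 to 0.952). Among the members, Krt79, Cst6 and Defb6 had correlations of 0.82 to 0.88 with each other, and Lrig1 and Gata6 of 0.76. Lrig1 had -0.14 with Krt79 and -0.55 with Plet1. The clusters of a library share its preparation and depth.

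Between libraries, levels in normal Suprabasal and in Suprabasal 1 week after the wound were compared. The file headers give Cell Ranger 3.1.0 for the normal and 4.0.0 for the wounded matrix, with 31054 and 32285 features. In this and the following comparisons between libraries, condition and counting version thus cannot be told apart. Of the 6 members 1 was over 2-fold lower in wounded Suprabasal, where 5.08% of 10739 genes were, and 0 were higher (15.7% of genes). Defb6 was at 8540 CPM in the normal and 1982 CPM in the wounded library (4.31-fold lower, log2 ratio -2.11, 95% interval -2.13 to -2.08). It was also lower in wounded fibroblast-like cells (1.66 against 27.7 CPM, 2 and 6 UMIs) and in barcodes that failed the filters (59.2 against 146 CPM). The part of counting and background in this was not tested. Krt79 had a log2 ratio of -0.82, Cst6 of -0.71 and Plet1 of -0.71, while Gata6 had 0.41 (0.06 to 0.78) and Lrig1 -0.14 (-0.64 to 0.39). The median of all genes was 0.13, and as the mean of per-cell values 3 members passed 2-fold lower, with Krt79 at -1.13 and Cst6 at -1.08.

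The share of cells over 1% Cst6 also differed between the libraries, as given above. Among cells over 1% Cst6, Krt79 was at 7583 CPM in the normal and 6214 CPM in the wounded library (1.22-fold lower) and Plet1 at 429 and 341 CPM (1.26-fold lower). Defb6 was at 10417 and 3455 CPM in the same cells (3.02-fold lower, log2 ratio -1.59, -1.62 to -1.56). Among cells at 1% or less Defb6 had a log2 ratio of -3.00 (3120 and 390 CPM), while Krt79 was 3.86-fold (2257 and 584 CPM) and Plet1 1.96-fold lower. The ranges are set on Cst6 itself, which holds Cst6, and in part the genes that vary with it, at like levels within a range, so the ratios of the members within a range are not ranked. Per 1000 Cst6 UMIs of Suprabasal there were 97.8 Defb6 UMIs in the normal and 37.2 in the wounded library, beside 71.2 and 65.9 Krt79 UMIs and 4.23 and 4.24 Plet1 UMIs.

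**Figure D4:**
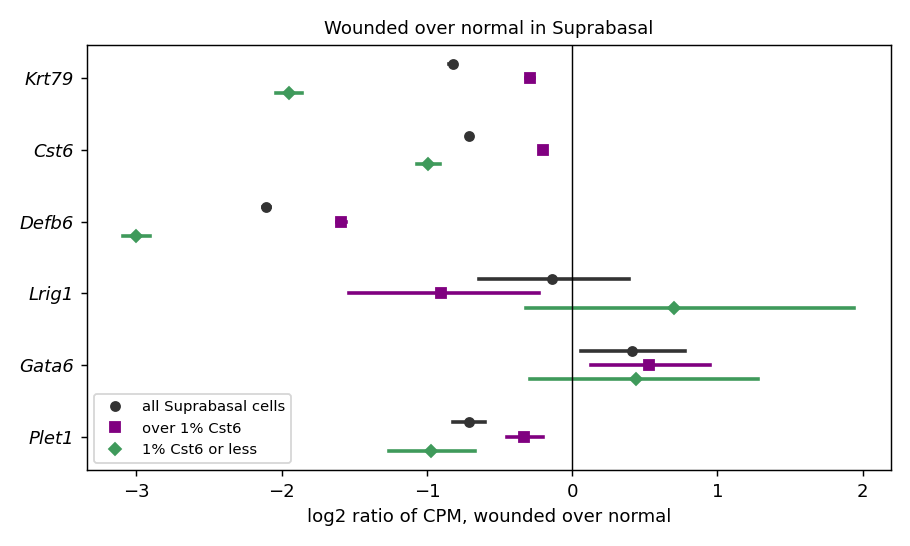
Log2 ratio of CPM, wounded over normal, for each gene in all Suprabasal cells (circles), in those with over 1% of their UMIs from Cst6 (squares) and in those with 1% or less (diamonds), with exact binomial 95% intervals (bars). Defb6 lies at -2.11, -1.59 and -3.00 and Krt79 at -0.82, -0.29 and -1.95.

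In Basal, 5 of 6 members were over 2-fold lower in the wounded library, where 12.8% of 10309 genes were, and 0 were higher (14.7% of genes). Defb6 was 13.7-fold (22.5-fold without the highest cells), Lrig1 4.24-fold, Gata6 3.82-fold, Krt79 3.79-fold and Cst6 2.81-fold lower (8.05-fold without the highest cells), and Plet1 had a log2 ratio of -0.26. Lrig1 was at 25.1 CPM in normal and 5.92 CPM in wounded Basal, beside 22.4 and 16.0 CPM in muscle-like cells. Without their highest cells, Cst6 and Krt79 in wounded Basal (133 and 50.1 CPM) stood beside 95.5 and 31.6 CPM in fibroblast-like cells. The sizes of the Lrig1, Cst6 and Krt79 folds thus depend in part on that background. Wounded Basal stood near normal Anal Canal in Krt10. In these clusters Lrig1 was at 5.92 and 5.02 CPM, Gata6 at 5.23 and 4.11 CPM and Plet1 at 125 and 97.7 CPM. Further apart were Krt79 at 103 and 49.5 CPM, Cst6 at 512 and 231 CPM and Defb6 at 44.4 and 166 CPM. Without the highest cells, Krt79 was at 50.1 and 35.0 CPM, Cst6 at 133 and 225 CPM and Defb6 at 21.3 and 28.3 CPM. The kind of cell and the condition cannot be told apart in this comparison.

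In Rectum, 2 of 6 members were over 2-fold higher in the wounded library (11.0% of 9287 genes) and 0 lower (6.01%). Plet1 was at least 3.31-fold higher (58 UMIs against 0, set to 3 UMIs), and at least 2.57-fold without the highest cell, and the counting error of the 58 UMIs adds to this. Cst6 was 4.50-fold higher, but without the highest cells it was 1.57-fold lower (log2 ratio -0.65). Gata6 had a log2 ratio of 0.60 (0.08 to 1.17) and Lrig1 of -0.48 (-1.01 to 0.09).

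Within the wounded library, Regeneration with Wound_Stress was set against Basal. Krt79 was 3.14-fold higher (log2 ratio 1.65, 1.53 to 1.78; 6.45-fold without the highest cells) and Lrig1 2.09-fold higher (1.06, 0.54 to 1.62), 2 of 6 members against 11.7% of 12190 genes. The gland markers given above, which are also higher in these clusters than in Basal, stand beside this Krt79 ratio. Lrig1, at 5.92 CPM in Basal, had 6.65 CPM (2.87 to 13.1) in fibroblast-like cells of the library. Muscle-like and endothelial-like cells were at 16.0 and 13.0 CPM (7 and 2 UMIs). The Lrig1 levels in Basal, Regeneration and Wound_Stress were at or below the highest of these background levels. Plet1 was 2.11-fold lower (11.5% of genes), with 82.4 CPM in Regeneration and 19.0 CPM in Wound_Stress, and 1.81-fold without the highest cells. Cst6 had a log2 ratio of -0.86 that became 0.54 without the highest cells, and Defb6, 1.99-fold lower, had one of -0.29 without them. Gata6 was at 12.7 CPM in Regeneration and 2.28 CPM in Wound_Stress.

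Hybrid, a wounded cluster with Krt8 at 430 CPM and Krt10 at 366 CPM, was set against Rectum. Defb6 was 26.3-fold, Krt79 12.8-fold and Cst6 4.57-fold higher (28.7-fold without the highest cells), 3 of 6 members against 11.9% of 10193 genes. Gata6 was 4.79-fold and Lrig1 3.63-fold lower, 2 of 6 members against 13.4%. Markers of hair follicle cells moved with this comparison. The 7 hair follicle markers summed to 130 CPM in Hybrid and 53.5 CPM in Rectum with none at 0, Lhx2, a follicle transcription factor, was at 43.2 and 0.730 CPM (64 and 3 UMIs), Tbx1 at 20.9 and 0.243 CPM (31 and 1 UMIs), and Lgr5 and Shisa2 were lower in Hybrid (14.8 and 8.77 against 19.5 and 19.2 CPM). Krt75, a keratin of the follicle's companion layer, was at 96.4 and 0.487 CPM (143 UMIs in 21 cells, and 2 UMIs). Their part in the members' ratios was not tested. Cst6 was unevenly held: 38 of 316 Hybrid cells had over 1% of their UMIs from Cst6, and their level of Krt79 was 2632 CPM against 193 CPM in the other 278 cells. When the deposited cells were clustered again without the members among the variable genes, 28 of the 316 cells kept the name Hybrid, and Krt79, Defb6 and Cst6 then had log2 ratios of 0.77, 0.57 and -1.34.

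Outside the deposited tables, Krt79 lay mainly in clusters with sebocyte markers. Filtered cells outside the table made up 610 of 1548 cells in the normal and 1078 of 5225 in the wounded library. In the normal library all 6 members were over 2-fold lower there than in the table (9.47% of 11948 genes) and 0 were higher (12.5%), and in the wounded library 4 of 6 were lower (10.8% of 14452 genes) and 0 higher (13.3%). Krt79 in the wounded library, at 690 CPM outside and 1125 CPM inside, had a log2 ratio of -0.71 (-0.74 to -0.67), while Cst6 was 53.9-fold (85.7-fold without the highest cells) and Defb6 76.2-fold lower.

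Clustering of these cells, at resolution 0.3, named 3 clusters sebaceous-like. In that of 100 normal cells, led by Serpina3j, Retn, Fa2h and Awat1, Krt79 was at 1260 CPM (1197 to 1326) and a UMI was seen in 86.8% of thinned cells. In sebaceous-like clusters of 345 and 76 wounded cells it was at 1200 and 1185 CPM, with a UMI in 85.2% and 84.0%. Cst6 was at 351, 122 and 50.9 CPM and Defb6 at 21.2, 3.91 and 14.8 CPM in these 3 clusters, beside 222 and 95.5 CPM of Cst6 in the fibroblast-like cells of the normal and wounded library. The markers of sebaceous cells and of the anal gland fixed for naming share Cidea and Elovl3. Both lists were raised in all 3 clusters against all other filtered or named cells of the library. The mean log2 folds were 5.21 and 3.74 in the normal cluster, and 3.19 and 2.51, and 2.22 and 2.03, in the wounded clusters. Sebaceous and anal gland cells thus cannot be told apart here. These clusters held 56.9% of the Krt79 UMIs outside the table in the normal and 95.4% in the wounded library.

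Hair follicle-like clusters had little Krt79. In the normal library they held 90 cells (79.4 CPM of Krt79, 1057 CPM of Cst6) and 101 cells (37.2 and 252 CPM), and in the wounded library 136 cells (151 and 1375 CPM) and 174 cells (49.3 and 125 CPM). In the cluster of 136 cells 1 cell held 1231 of the 2070 Cst6 UMIs (567 CPM without it), and in that of 90 cells 1 cell held 240 of 706 (709 CPM without it). The cluster of 174 cells, with Lgr5 and Tbx1 among its leading genes, had Lrig1 at 34.4 CPM (44 UMIs), the highest Lrig1 level of the 8 wounded clusters outside the table. Gata6 had 0 to 3 UMIs in each of the 4 hair follicle-like clusters. An unnamed normal cluster of 132 cells led by Egr4 and Pdk4, with other immediate-early genes, had Krt79 at 339 CPM and Plet1 at 93.8 CPM, and an unnamed one of 103 cells led by immunoglobulin genes had Krt79 at 399 CPM.

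**Figure D5:**
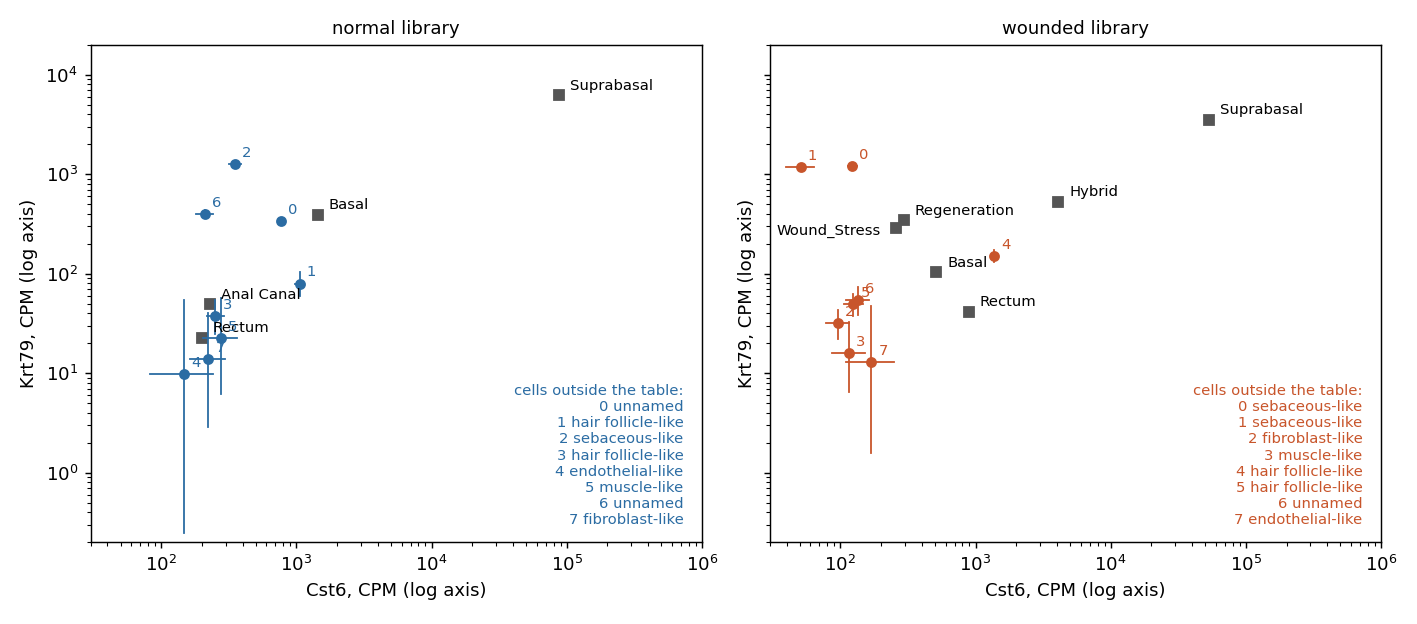
Krt79 against Cst6, both in CPM (log axes), in deposited clusters (grey squares) and in clusters of filtered cells outside the tables (coloured circles with exact Poisson 95% intervals, numbered as in the key), in the normal (left) and wounded (right) library. Suprabasal lies top right, the sebaceous-like clusters lie near 1200 CPM of Krt79 at low Cst6, and the fibroblast-, muscle- and endothelial-like clusters lie bottom left.

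Lists of related genes, chosen with earlier results known, gave mixed directions. Of 7 upper follicle companions 4 could be measured in normal Suprabasal over Basal, where 2 were over 2-fold higher, 1 was lower and 1 neither (median log2 ratio 0.91, all genes -0.28), beside the 6.18% and 15.6% of all genes that were higher and lower. In the wounded library these background shares were 9.26% and 10.4%, and both pairs apply to each list here, whose few measured genes set no list apart from other genes. Krt17, the keratin whose promoter drives the Cre, was at 2265 CPM in Basal and 9389 CPM in Suprabasal. Atp6v1c2, a proton pump subunit, was at 9.98 and 128 CPM, while Fst, an activin antagonist, was at 201 and 35.5 CPM. In the wounded library 4 of 7 were higher and 2 lower (median 2.20, all genes -0.14), with Krt17 at 381 CPM in Basal and 7100 CPM in Suprabasal, Atp6v1c2 at 5.40 and 112 CPM, and Fst at 15.0 and 68.8 CPM, opposite to the normal library. Lgr6, a receptor of follicle stem cells, was highest in Wound_Stress (22.8 CPM) and at 1.56 CPM in wounded Suprabasal.

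Of the proteases that cystatin M/E inhibits and the transglutaminases, 4 of 5 could be measured in normal Suprabasal over Basal, 1 higher (Tgm1, 2.22 and 11.8 CPM) and 1 lower (median 0.43). Legumain (Lgmn) was at 13.3 and 6.13 CPM in Basal and Suprabasal, cathepsin L (Ctsl) at 163 and 171 CPM and cathepsin B (Ctsb) at 380 and 655 CPM. Tgm3 was at 66.4 CPM in normal Anal Canal with 0 UMIs in Suprabasal. After wounding 1 of 5 was higher and 2 were lower (median -0.29), with Ctsb at 168 and 484 CPM. The 2 that were lower were the transglutaminases Tgm1 (21.1 and 5.53 CPM) and Tgm3 (103 and 6.91 CPM). The proteases Lgmn, Ctsl and Ctsb differed between Basal and Suprabasal by 1.05-fold to 2.17-fold in the normal and 1.06-fold to 2.88-fold in the wounded library, where Cst6 differed by 60.7-fold and 104-fold.

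Of the Lrig family and ErbB receptors, 2 of 4 measured genes, Erbb2 and Erbb3, were higher in normal Suprabasal over Basal and 0 lower (median 0.76), and 0 of 5 passed 2-fold in the wounded library (median 0.41). Lrig3 was at 46.9 CPM in normal and 76.6 CPM in wounded Rectum, its highest cluster in both tables, as for Lrig1. Egfr was highest in Wound_Stress at 71.8 CPM. Of 4 other beta-defensins only Defb1 could be measured, at 550 CPM in normal Basal and 1432 CPM in Suprabasal, and at 50.3 and 942 CPM in the wounded library, and its wounded over normal log2 ratio in Suprabasal was -0.60. Of 4 other GATA factors Gata3 was measured in each comparison, at 68.0 CPM in normal Basal and 21.5 CPM in Suprabasal, opposite to Gata6, and at 4.26 CPM in Rectum.

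ZsGreen1, the green reporter, was a feature of the normal library alone. It had a UMI in 13 of 257 Basal cells (5.06%), 11 of 187 Suprabasal cells (5.88%), 17 of 432 Anal Canal cells (3.94%) and 34 of 610 cells outside the table (5.57%), with 0 of 63 in Rectum (3 cells there would be 4.76%). The cells outside the table, which hold hair follicle-like, sebaceous-like and fibroblast-like cells, thus had a share like those of Basal and Suprabasal. The share of each kind was not measured, and the shares were not read as lineage. Krt17 was higher in cells with a ZsGreen1 UMI outside the table (4627 and 2304 CPM) and in Anal Canal (978 and 685 CPM). It was lower in such cells of Basal (1935 and 2289 CPM) and Suprabasal (6922 and 9563 CPM). In Suprabasal, Krt79 was at 4800 CPM in cells with a ZsGreen1 UMI and 6313 CPM in those without, and Defb6 at 14673 and 8106 CPM. In Basal, Krt79 was at 948 and 353 CPM and Defb6 at 1868 and 517 CPM. Cells with a ZsGreen1 UMI were deeper (medians of 13340 and 9802 UMIs in Basal), and the part of depth in these values was not tested.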

How the data were processed

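Anorectal cells of 1 normal and 1 wounded library were profiled by 10x Genomics 3' single-cell RNA-seq. The deposited matrices hold UMI counts made by the authors with Cell Ranger (3.1.0 per the labels, while the file headers give 3.1.0 for the normal and 4.0.0 for the wounded matrix) on mm10. The deposited cell tables, made by the authors with Seurat 3.2.2, hold cluster names and values on a natural log scale, and the latter were used in an alternative only. Groups came from the labels and cluster names. Cells with 200 to 5000 features and under 25% mitochondrial UMIs were kept. UMIs were summed per cluster to CPM with exact Poisson intervals, ratios had exact binomial intervals, and shares came from cells thinned to 2000 UMIs with Clopper-Pearson intervals (95% level, Python 3.11.15, scipy 1.17.1, numpy 2.4.6, pandas 2.3.3). Genes with at least 30 UMIs over both groups and over 2-fold apart were called. A count of 0 was set to 3 UMIs for bounds. Cells outside the tables were clustered with scanpy 1.11.5 at resolution 0.3. The ratio script was tested on simulated data.

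Named genes were the 6 members, for each member the 3 genes with the highest Pearson correlation over 10 clusters (at least 50 UMIs in a cluster of each library), for Cst6, Krt79 and Defb6 the 5 with the highest Spearman correlation in normal Suprabasal cells (a UMI in at least 10%), and 5 lists of 25 genes in all. The members and lists were chosen with earlier results of these data known. Scrublet marked 4 of 1548 and 0 of 5225 cells, which was not usable, so doublets were kept, and removing the 93 and 314 highest scores was an alternative. Other alternatives were per-cell means, other totals, filters, fold and UMI minimums, other thinning depths and clusters rebuilt without the members.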

Additional observations from a re-analysis of the deposited data

Results flagged for a closer look

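Lrig1 in Suprabasal over Basal had values of unlike sign in the libraries, with a log2 ratio of -0.52 (-1.12 to 0.06, 17.5 against 25.1 CPM) in the normal library, an interval that includes 0, and 1.42 (15.9 against 5.92 CPM) in the wounded library. The difference was not tested, and the level in Suprabasal differed less between libraries than that in Basal, a label that covers unlike cells.

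Gata6 had signal in data outside the comparisons, at 27.9 CPM in 11991 wounded barcodes that failed the filters, beside 14.8 CPM in 1015 such normal barcodes. These barcodes had medians of 60.0% and 75.3% mitochondrial UMIs, and Krt8 was at 653 and 550 CPM in them.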

How the results depend on the processing

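With 1 library per condition, the spread between animals is unknown, leaving out a replicate was not possible, and depth limits Lrig1 and Gata6 most. No paired analysis was possible because each condition is 1 library. Of the counts of members past 2-fold, 199 alternative values stayed within 1.5 times the reported count and 17 did not. Of the log2 ratios 314 stayed within their counting interval, 161 moved beyond it and 4 reversed, and of the shares of cells at other settings 42 stayed and 114 moved. The causes were not tested except where the setting itself names them.

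With at least 100 UMIs, 3 members in place of 5 were lower in normal Anal Canal over Basal, since fewer genes were tested. For Regeneration with Wound_Stress over Basal, 1 member was higher with per-cell means and 4 with rebuilt clusters (2 reported), and 3 were lower under 10% mitochondrial UMIs, 2 with at least 2000 UMIs per cell, 2 without the highest Scrublet scores, 3 at a 1.5-fold call and 0 without the highest cells (1 reported). For Hybrid over Rectum, rebuilt clusters gave 0 higher and 1 lower (3 and 2 reported), and Cst6 (-1.34) and Lrig1 (0.34) reversed. For Suprabasal between libraries, 3 were lower with per-cell means and 4 at 1.5-fold (1 reported). For Rectum between libraries, 1 member was higher under 10% mitochondrial UMIs, without the highest Scrublet scores, with at least 100 UMIs and without the highest cells, and 4 at 1.5-fold (2 reported), and Cst6 reversed to -0.66 without the highest Scrublet scores and to -0.65 without the highest cells. The last setting was added after the data were seen. Leaving mitochondrial genes and the members out of the total moved the median of all genes in normal Suprabasal over Basal from -0.28 to -0.11. The deposited whole numbers changed the sign of 0 of 30 ratios.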
